A study of Homo sapiens with 12 samples.

Results

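The genes described here are 10 transcription factor genes of the basic helix-loop-helix (bHLH) class: the E proteins TCF3, TCF4 and TCF12, the inhibitors ID1, ID2, ID3 and ID4, the mesenchymal factors TWIST1 and TWIST2, and MYC. They were chosen by symbol, as TCF3 with its E-protein, ID and TWIST partners and MYC, and all 10 were found among the 62069 genes of the count table and passed the filter on low counts that left 15284 genes. The RNA came from IMR90 ER:RAS cells, human fetal lung fibroblasts with a RAS protein joined to the hormone-binding domain of the estrogen receptor, which 4-hydroxytamoxifen (4OHT) switches on to start oncogene-induced senescence (OIS). All 12 libraries came from this line at passage 13, in 4 groups of 3. All 12, the non-induced ones included, were labelled day 5 counted from induction, with 7 days in culture and a medium change on day 4. The non-induced group was not senescent. The 3 other groups received 100 nM 4OHT: 4OHT alone, 4OHT with the short hairpin RNA shXPO7_3, and 4OHT with shXPO7_5. Both hairpins are directed at the nuclear transport receptor XPO7. The sample labels name no control vector for the 4OHT-alone and non-induced groups. Libraries are marked T, A, B or C, and nothing states that those of 1 group were separate cultures. The p-values therefore rest on a spread that may be only technical.

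bHLH proteins bind DNA in pairs, at E-boxes with the letters CANNTG. E proteins are made in most tissues and pair with themselves or with tissue-restricted factors such as TWIST or the myogenic factors. ID proteins have the pairing helices but lack the basic stretch that touches DNA, so an E protein held by an ID protein does not bind. In fibroblasts, ID proteins are known for supporting growth and for restraining cell-cycle inhibitors that E proteins can activate, and their genes respond to bone morphogenetic protein (BMP) signalling through SMAD proteins. MYC pairs with MAX in a separate network and drives growth and ribosome synthesis. The study proposes that XPO7 sets the overall level of TCF3 protein, rather than its localization, by a post-transcriptional mechanism. Through TCF3, and not through it alone, XPO7 is proposed to act on the CDK inhibitor gene CDKN1A. The counts measure transcripts. They bear on how much RNA of TCF3 and its partners was present, and not on the amount or place of any protein.

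Library totals ran from 28534141 to 60397769 counts. XPO7 itself averaged 137 ± 8.81 CPM with 4OHT alone (CPM, counts scaled to library size; SD, n = 3), 27.7 ± 1.14 with shXPO7_3 and 52.2 ± 1.62 with shXPO7_5, a fall of 2.30 and of 1.39 on the log2 scale, so shXPO7_3 left less XPO7 RNA than shXPO7_5. All 11 fibroblast markers listed were expressed. On induction 6 of them were called, 1 higher and 5 lower, beside 50.9% of all genes. DCN (decorin, a matrix proteoglycan), named after its values were seen, fell from 987 to 95.6 CPM. PDGFRB, a growth factor receptor of mesenchymal cells, was the 1 fibroblast marker called in a knockdown, beside 0.589% of all genes. It rose from 217 ± 4.80 CPM with 4OHT alone to 326 ± 30.6 with shXPO7_5 (SD, n = 3), by 0.58 (adjusted p = 0.0256), and was at 311 ± 36.1 with shXPO7_3 (0.52, adjusted p = 0.0834). The shXPO7_5 call was lost without any 1 of the libraries with 4OHT alone or shXPO7_5 T or B, with differences of 0.54 to 0.66 over the 6 libraries left out in turn. It was also lost when only the groups compared were fitted. Of 11 markers of endothelial, epithelial and immune cells, CDH5, PECAM1, KRT5, KRT14, SFTPC, CD3E and MS4A1 were listed at 0 in every library. PTPRC held 0 to 2 counts and CD68 2 to 7. VWF, an endothelial marker, averaged 2.22 CPM without induction and 3.14 with 4OHT (adjusted p = 0.0521), and EPCAM, an epithelial one, 0.912 and 0.497 CPM (adjusted p = 0.0225), with neither called in a knockdown. The part of these levels in the results was not tested. A listed 0 can also mark an identifier to which no reads were assigned, since BOP1, a gene of ribosome synthesis, was listed at 0 with either hairpin too.

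The libraries differed in how counts followed the GC content of transcripts: Spearman's rho across genes, between transcript GC and the log ratio of a library to the average library, was 0.676 in shXPO7_5 library B, 0.442 in shXPO7_5 T and 0.350 in shXPO7_3 T, against -0.485 to -0.192 in the other shRNA libraries and those with 4OHT alone and -0.208 to 0.256 in the non-induced ones. Among the members, TCF3 had the most GC-rich transcripts, at 61.8% (above 90.1% of tested genes), and TCF12 the least GC-rich, at 44.9%. The part of this trend in the results was examined only by a correction for GC and length. That correction removes a smooth trend of each library on both, and its values stand beside some of the results it moves. In these bulk samples, fewer cells of a kind and less RNA per cell cannot be told apart.

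Induction with 4OHT changed 4 of the 10 genes. ID2 and ID4 fell, ID1 and TWIST1 rose, and the 3 E-protein genes, ID3, TWIST2 and MYC did not pass the threshold of an adjusted p of 0.05 (edgeR's quasi-likelihood test, Benjamini-Hochberg over all genes tested). Induction moved much of the transcriptome, with 50.9% of all genes called, 24.8% higher and 26.1% lower, so 4 of 10 is not above the background. At an unadjusted p under 0.05 there were 5 members, with TCF3 added, beside 57.1% of all genes. With upper-quartile factors, which put the median change of all genes at -0.10 in this comparison, 2872 of 7505 calls were higher, against 3793 of 7777 with the TMM factors used throughout. The groups did not overlap for 6 of the 10, beside 63.2% of all genes.

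None of the 10 genes passed this threshold with XPO7 knockdown. With shXPO7_3 against 4OHT alone, 0 were called where 0.124% of all genes were, 4 had an unadjusted p under 0.05 (ID2, ID4, TWIST1 and TWIST2, beside 6.41% of all genes), 3 did not overlap with 4OHT alone (beside 14.6%), and DESeq2 called 0. With shXPO7_5, 0 were called where 0.589% of all genes were, 4 had an unadjusted p under 0.05 (TCF3, ID2, TWIST1 and TWIST2, beside 21.6%), the same 4 did not overlap (beside 26.8%), and DESeq2 called 2, TWIST1 and TWIST2. Between the hairpins, 0 were called where 0.0131% of all genes were, with 1 unadjusted p under 0.05 (TCF3, beside 11.9%), 1 member without overlap (beside 9.71%) and 0 called by DESeq2. Both knockdown groups were compared with the same 3 libraries of 4OHT alone, so the values of the hairpins are not independent of each other.

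**Figure D1:**
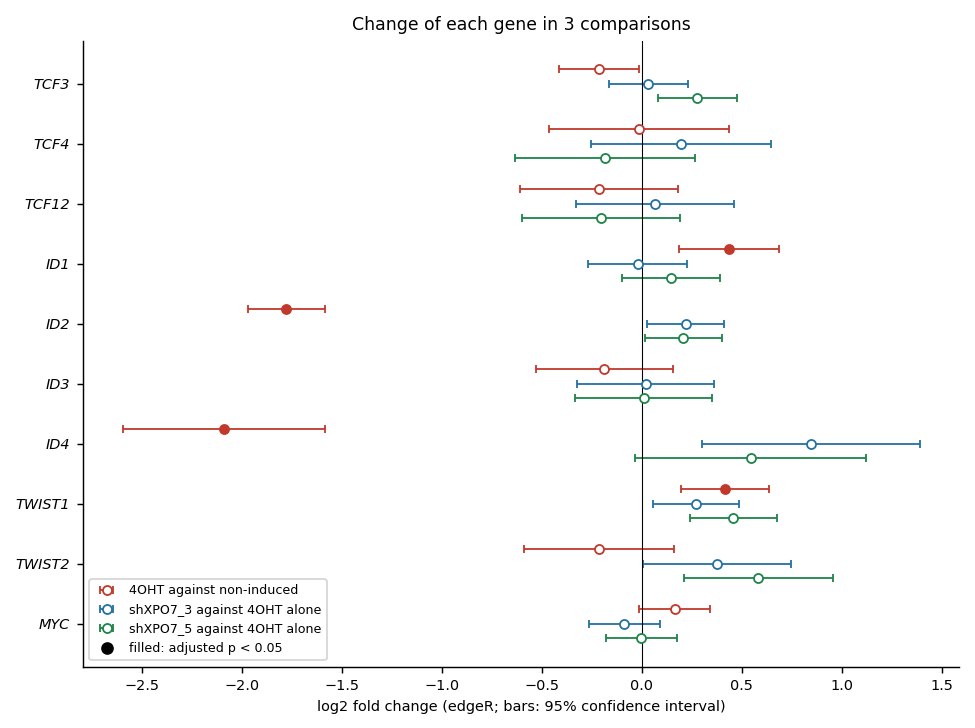
Log2 fold change of the 10 genes (x axis, edgeR, bars are 95% confidence intervals) for 4OHT against non-induced and for each hairpin against 4OHT alone; filled points passed an adjusted p of 0.05. Only the induction values of ID1, ID2, ID4 and TWIST1 are filled, and ID2 and ID4 lie farthest from 0.

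TCF3 (E2A, ENSG00000071564, minus strand, chr19:1609290-1652605 in GRCh38 from GENCODE 29) is the E protein on which the study's proposal rests. Its transcript was not higher in OIS. It stood at 99.3, 103 and 91.2 CPM in the non-induced libraries T, A and C, and at 82.9, 85.3 and 84.8 CPM in T, A and B with 4OHT. Every induced library was below every non-induced one, but the difference of -0.21 on the log2 scale (SE 0.091, 95% interval -0.41 to -0.014) had an adjusted p of 0.0691. It passed the threshold in 4 of 15 alternative fits, with adjusted p from 0.0233 to 0.168 over all 15, and remained below 0 in each.

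With shXPO7_3, TCF3 was at 92.4, 79.0 and 87.4 CPM in T, A and B, on both sides of the libraries with 4OHT alone, and the difference was 0.033 (95% interval -0.17 to 0.23, adjusted p = 0.999). With shXPO7_5 it was at 97.7, 92.9 and 116 CPM, each above the highest library with 4OHT alone. That difference of 0.28 (95% interval 0.080 to 0.48) had an adjusted p of 0.160. After correction for GC and length it was 0.080 (adjusted p = 0.365), without shXPO7_5 library B it was 0.18 (adjusted p = 0.520), and without library A it was 0.34 and passed (adjusted p = 0.0371). The hairpin that left less XPO7 RNA was thus the one with TCF3 nearest to 4OHT alone, and TCF3 was 0.25 higher with shXPO7_5 than with shXPO7_3 (adjusted p = 0.388), or 0.065 after the GC and length correction.

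TCF12 (HEB, plus strand, chr15:56918623-57299281) had the highest mean of the E proteins per kb of exon before induction, at 19.2 ± 3.81 CPM per kb beside 16.1 ± 0.974 for TCF3 and 1.83 ± 0.386 for TCF4 (SD, n = 3). Its libraries overlapped those of TCF3 on this measure. With median transcript lengths they did not, at 159 to 235 CPM per kb for TCF12, 71.9 to 81.0 for TCF3 and 43.6 to 66.6 for TCF4. In CPM it was at 140, 197 and 208 CPM in the non-induced libraries and at 158, 162 and 149 CPM with 4OHT. The non-induced libraries lay on both sides of the induced ones, and the difference of -0.21 had an adjusted p of 0.345. Its spread within groups was wide and went with the GC slope of the libraries. The shXPO7_5 libraries T, A and B held 119, 173 and 116 CPM, and the shXPO7_3 libraries 131, 180 and 181 CPM. In each hairpin group the libraries with a positive GC slope (T and B of shXPO7_5, T of shXPO7_3) were the low ones, and neither knockdown difference (0.067 with shXPO7_3 and -0.20 with shXPO7_5) passed, at adjusted p of 0.999 and 0.459.

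TCF4 (minus strand, chr18:55222331-55664787), an E protein best known in neurons and plasmacytoid dendritic cells, ranged from 40.7 to 62.1 CPM in the non-induced libraries, from 44.2 to 54.9 with 4OHT, from 46.1 to 64.1 with shXPO7_3 and from 36.2 to 59.5 with shXPO7_5. All 4 ranges overlap, and the induction difference was -0.013 (95% interval -0.46 to 0.44), so a change within that interval was not detectable with 3 libraries a group. Transcript level is given for the gene as a whole; the counts do not separate the isoforms of any of these genes.

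**Figure D2:**
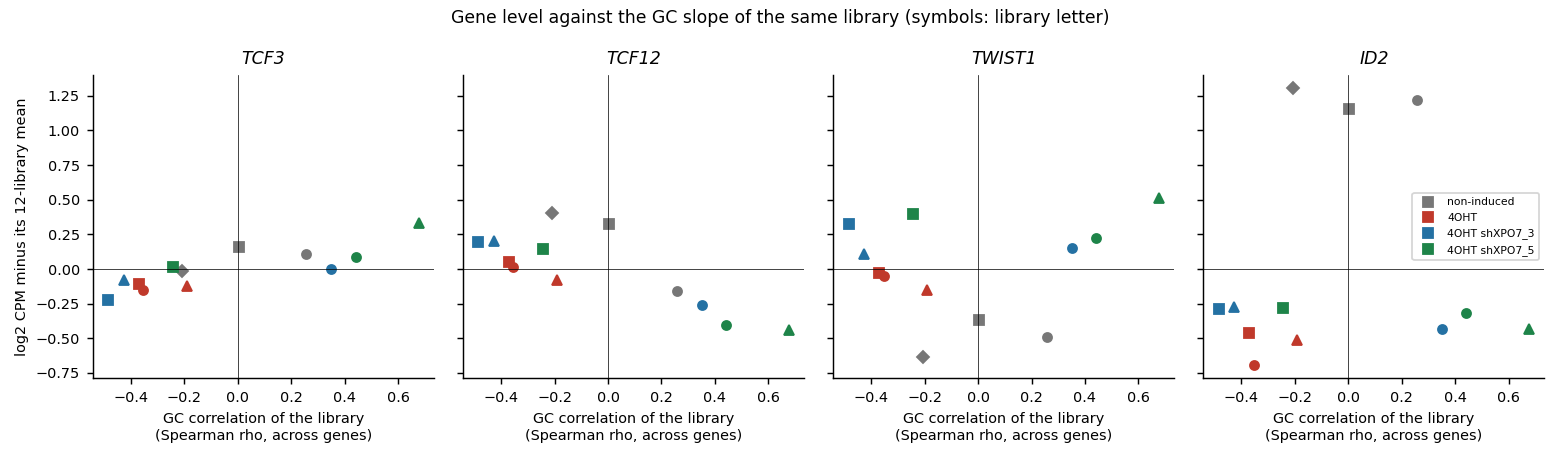
Level of TCF3, TCF12, TWIST1 and ID2 in each of the 12 libraries (y axis, log2 CPM minus its 12-library mean) against the GC slope of the same library (x axis, Spearman's rho across genes). TCF3 is highest and TCF12 lowest in shXPO7_5 library B, which has the largest rho (0.676), whereas ID2 separates the non-induced libraries from all others at any rho.

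**Figure D3:**
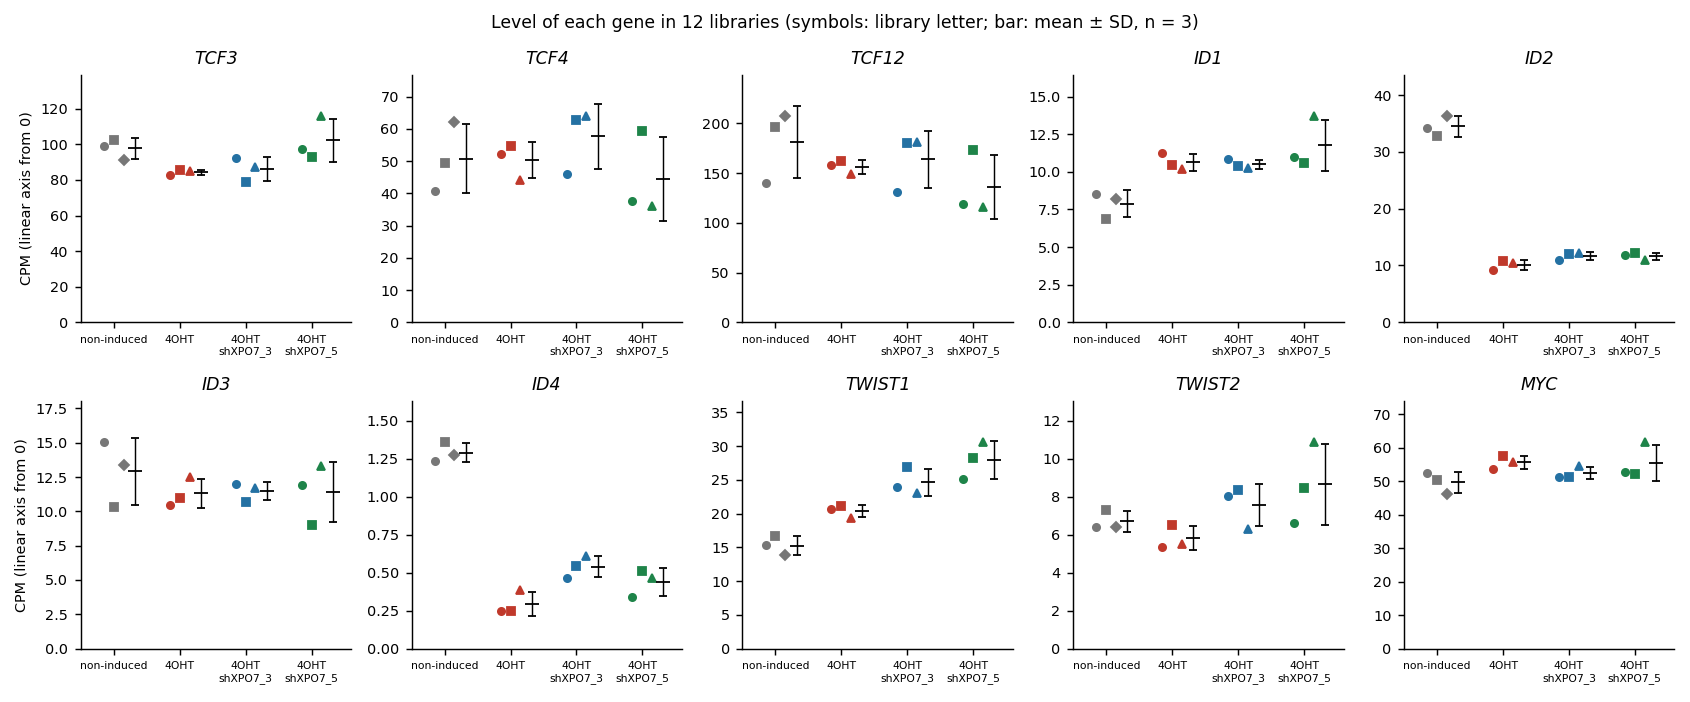
CPM of each of the 10 genes in the 12 libraries (linear axes from 0, 1 panel a gene; symbols give the library letter, bars the mean ± SD of 3 libraries). ID2 and ID4 are high only in the 3 non-induced libraries, and TWIST1 is above its non-induced range in all 9 libraries with 4OHT.

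ID2 (ENSG00000115738, plus strand, chr2:8678845-8684453 in GRCh38) was the ID gene with the highest level per kb of exon before induction, at 15.6 ± 0.808 CPM per kb beside 7.18 ± 1.34 for ID3 and 6.39 ± 0.734 for ID1 (SD, n = 3). In CPM it stood at 34.3, 32.8 and 36.4 CPM in the non-induced libraries and at 9.13, 10.7 and 10.3 CPM with 4OHT. The groups were far apart, and ID2 fell by 1.78 on the log2 scale (SE 0.088, adjusted p = 7.2e-09), a 3.43-fold lower level. With shXPO7_3 it was at 10.9, 12.05 and 12.2 CPM and with shXPO7_5 at 11.8, 12.1 and 10.9 CPM. All 6 knockdown libraries lay above the highest library with 4OHT alone and below all non-induced ones, but the differences of 0.22 and 0.21 had adjusted p of 0.636 and 0.216. They were above 0 in all 15 alternative fits for each hairpin, and none of those fits called ID2.

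ID4 (plus strand, chr6:19837386-19840684) had low counts throughout, from 40 to 56 in the non-induced libraries and from 7 to 36 in the others. It was at 1.24, 1.36 and 1.28 CPM without induction and at 0.246, 0.248 and 0.383 CPM with 4OHT, a fall of 2.09 (SE 0.232, adjusted p = 1.1e-05). In the shXPO7_3 libraries it was at 0.467, 0.543 and 0.607 CPM, above all libraries with 4OHT alone, and with shXPO7_5 at 0.337, 0.513 and 0.464 CPM, which overlap them. The differences were 0.85 (95% interval 0.30 to 1.39, adjusted p = 0.354) and 0.54 (-0.031 to 1.12, adjusted p = 0.279). At 7 to 19 counts in the libraries with 4OHT alone, these intervals are wide.

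ID1 (plus strand, chr20:31605283-31606515), the ID gene most often used as a readout of BMP signalling, moved the other way. It was at 8.56, 6.85 and 8.22 CPM without induction and at 11.3, 10.5 and 10.2 CPM with 4OHT. It rose by 0.44 (SE 0.115, adjusted p = 0.0070), and the groups did not overlap. With shXPO7_3 it was at 10.8, 10.4 and 10.3 CPM and with shXPO7_5 at 11.02, 10.6 and 13.7 CPM, with differences of -0.020 and 0.15 from 4OHT alone (adjusted p = 0.999 and 0.395). ID3 (minus strand, chr1:23557918-23559794) was at 15.05, 10.3 and 13.4 CPM without induction and at 10.5, 10.95 and 12.51 CPM with 4OHT, overlapping groups with a difference of -0.19 (adjusted p = 0.343). In the knockdown libraries ID3 ranged from 9.03 to 13.3 CPM and differed from 4OHT alone by 0.020 and 0.012.

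Because E proteins act at E-boxes, the 250 bases before each RefSeq transcription start (GRCh38.p14) were searched for CANNTG. Of the members, 8 were searched. TWIST1 has no entry in the table used, and MYC was left out of the search. ID2 and ID4, the genes that fell, and CDKN1A, the gene the study places downstream of TCF3, each held 1 match, and in all 3 it was the form CAGCTG, which reads the same on both strands. The 30 bases around each are printed in the direction of the gene, with the E-box in capitals.
ID2, chr2:8681839-8681868, plus strand: tatttaccacccCAGCTGggctcgcgcccc
ID4, chr6:19837337-19837366, plus strand: gctctataaataCAGCTGcgcggcgggccg
CDKN1A, chr6:36678554-36678583, plus strand: ctcggccaggctCAGCTGgctcggcgctgg
The first base of the E-box lay 205, 21 and 148 bases before the start in ID2, ID4 and CDKN1A. By GENCODE 29 (same build), the ID2 window crosses the start of the first exon of a longer ID2 transcript, with 15 bases inside it, and shares 25 bases with an exon of the antisense gene ID2-AS1. The CDKN1A window shares 6 bases with an exon of the noncoding gene DINOL on the other strand, and that of ID4 meets no exon. The whole 250-base stretch of ID4 (chr6:19837120-19837369) is shown because ID4 had the largest log2 change of the 10 genes on induction and its E-box lies nearer to the start than those of ID2 and CDKN1A.
ID4: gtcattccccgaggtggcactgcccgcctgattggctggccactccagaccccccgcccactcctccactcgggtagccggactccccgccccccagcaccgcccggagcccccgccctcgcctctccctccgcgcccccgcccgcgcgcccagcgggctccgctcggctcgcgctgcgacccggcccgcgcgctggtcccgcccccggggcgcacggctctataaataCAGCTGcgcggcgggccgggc
No CANNTG was found in this window of ID1, ID3, TCF3 or TWIST2. TCF12 and TCF4, which were not called on induction, have several starts, and 2 of 5 windows of TCF12 and 5 of 10 of TCF4 held a CANNTG, the nearest 18 and 41 bases before a start, none of them a CAGCTG. E-boxes were thus present before members that were called and members that were not. Over all 35116 promoters of the table, 61.8% held a CANNTG and 14.0% a CAGCTG. ID2 and ID4 fell on induction while CDKN1A rose, so the shared letters went with both directions. The GC-rich motif GGCGCC, a form bound by BMP-activated SMAD proteins, was in none of the 4 ID windows and in 16.4% of all promoters.

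Of 19 listed BMP and SMAD genes, which act upstream of the ID genes, 18 were tested and 14 were called on induction, beside 50.9% of all genes, 6 higher and 8 lower (median log2 change 0.064, beside -0.0068 for all genes tested). BMP2, a ligand that induces ID genes, rose from 1.88 to 142 CPM, by 6.25 (SE 0.115, adjusted p = 4.4e-12). Among extracellular antagonists, FST (follistatin), which binds activins and some BMPs, fell by 1.46, and GREM1 (gremlin), which binds BMP ligands, fell by 1.22. SMAD9, a receptor-regulated SMAD of the BMP branch, fell by 1.95. Outside the rule for named genes, and chosen after their values were seen, the receptor ACVRL1 rose from 19.2 to 38.4 CPM, SMAD1 by 0.75 on the log2 scale and the inhibitory SMAD7 by 0.54, whereas SMAD6, the inhibitory SMAD that is itself a BMP target, fell by 1.19. ID1 and SMAD7 thus rose in the libraries in which ID2, ID4 and SMAD6 fell. In the knockdowns 0 of the 18 were called, with 3 and 4 at an unadjusted p under 0.05 for shXPO7_3 and shXPO7_5 (beside 6.41% and 21.6% of all genes), and BMP2 differed from 4OHT alone by 0.15 and 0.056 (adjusted p = 0.942 and 0.673).

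**Figure D4:**
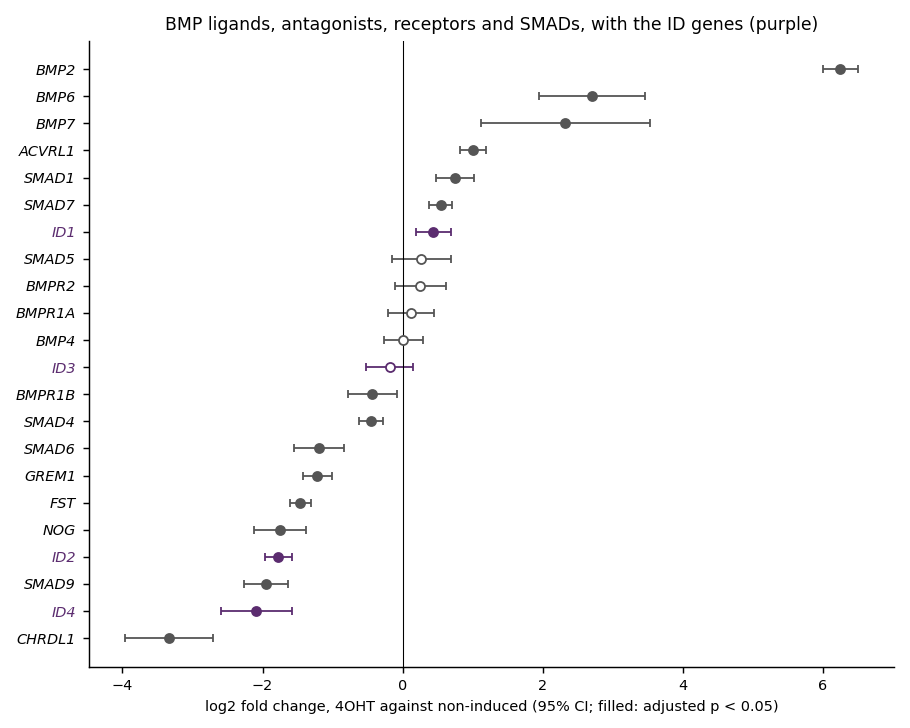
Log2 fold change on induction (x axis, bars are 95% confidence intervals, filled points passed an adjusted p of 0.05) of the 18 tested BMP and SMAD genes and the 4 ID genes (purple). BMP2 stands at 6.25 at the top, while ID2, ID4 and the antagonists GREM1, FST, NOG and CHRDL1 lie below 0. CHRDL1 passed the filter on low counts only through the non-induced libraries, and BMP6 and BMP7 only through libraries with 4OHT.

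The balance of E-protein to ID transcripts was computed in each library as the summed CPM per kb of exon of TCF3, TCF4 and TCF12 over that of the 4 ID genes. Its log2 value was 0.058, 0.56 and 0.33 in the non-induced libraries and 0.75, 0.76 and 0.64 with 4OHT. The induced libraries were all above the non-induced ones, with means of 0.72 ± 0.067 and 0.32 ± 0.25 (SD, n = 3). No p-value is given, since 3 libraries against 3 cannot reach an exact permutation p under 0.1. In shXPO7_3 libraries it was 0.58, 0.77 and 0.80 and with shXPO7_5 0.51, 0.89 and 0.46, on both sides of the values with 4OHT alone. The means of 0.71 ± 0.12 and 0.62 ± 0.23 differed from that with 4OHT alone by less than their own spread.

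The makeup of the ID sum changed more than its ratio to the E proteins. Per kb of exon, ID2 made up 52.7% ± 3.07 of the ID sum before induction and 23.2% ± 1.64 with 4OHT, while ID1 went from 21.4% ± 0.676 to 44.1% ± 3.28 (SD, n = 3). The log2 ratio of ID2 to ID1 per kb of exon was between 1.16 and 1.42 in the non-induced libraries and between -1.17 and -0.59 in all 9 libraries with 4OHT, knockdowns included. The ratio thus fell in each of them, but ID1 standing above ID2 rests on the exon lengths used. With median transcript lengths ID2 stayed above ID1 in libraries A and B with 4OHT alone (10.8 and 10.4 against 9.42 and 9.15 CPM per kb). In library T it was below (9.20 against 10.1), and in every shXPO7_3 library above. ID4 was 1.87% of the sum before induction and 0.634% after. On the side of the E proteins, TCF3 made up 43.7% ± 5.93 of the sum without induction, 43.0% ± 1.34 with 4OHT, 42.5% ± 6.14 with shXPO7_3 and 51.6% ± 8.06 with shXPO7_5. The high shXPO7_5 mean came from T and B (53.6% and 58.5%), the libraries with the steepest GC slope, and A was at 42.7%. The absolute level of the ratio and the shares of the sums rest on the gene lengths used: TCF4 has 27828 bases of exon in all its transcripts together but a median transcript of 933. With median transcript lengths TCF12 was above TCF3 in every library, so the TCF3 shares given here hold for exon lengths only. With median transcript lengths the 4 means were 2.56 without induction, 3.20 with 4OHT, 3.19 with shXPO7_3 and 2.99 with shXPO7_5.

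**Figure D5:**
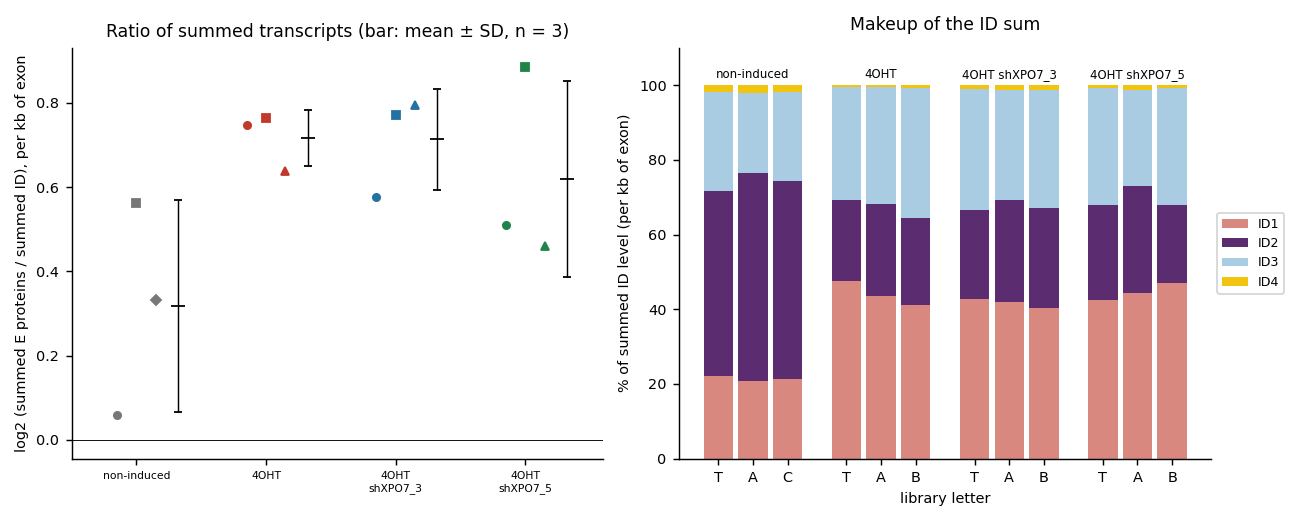
Left, log2 ratio of summed E-protein to summed ID transcripts per kb of exon in each library (bars are mean ± SD of 3 libraries); right, share of ID1, ID2, ID3 and ID4 in the ID sum of each library. The non-induced libraries have the lowest mean ratio (0.32) and are the 3 in which ID2 has the largest share of the sum.

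TWIST1 (ENSG00000122691, minus strand, chr7:19020991-19117672 in GRCh38) encodes a bHLH factor that pairs with E proteins and is known for promoting mesenchymal identity and overriding senescence in tumour cells. It was at 15.3, 16.6 and 13.8 CPM without induction and at 20.7, 21.1 and 19.3 CPM with 4OHT. It rose by 0.42 (SE 0.100, adjusted p = 0.0040). With shXPO7_3 it was at 23.9, 26.9 and 23.1 CPM and with shXPO7_5 at 25.1, 28.3 and 30.6 CPM, so all 6 knockdown libraries were above all libraries with 4OHT alone. The differences were 0.27 (95% interval 0.057 to 0.49, adjusted p = 0.565) and 0.46 (0.24 to 0.67, adjusted p = 0.0611). For shXPO7_5 it passed in 6 of 15 alternative fits, with adjusted p from 0.0033 to 0.225, and was 0.33 after the GC and length correction (adjusted p = 0.108).

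TWIST2 (plus strand, chr2:238848032-238910543), a close relative with similar partners, was at 6.40, 7.31 and 6.38 CPM without induction and at 5.36, 6.52 and 5.53 CPM with 4OHT, overlapping groups with a difference of -0.21 (adjusted p = 0.324). Under shXPO7_3 it was at 8.01, 8.33 and 6.29 CPM, which overlap 4OHT alone, and with shXPO7_5 at 6.60, 8.46 and 10.9 CPM, which do not. The differences were 0.38 (95% interval 0.0050 to 0.75, adjusted p = 0.763) and 0.58 (0.21 to 0.96, adjusted p = 0.133). Without shXPO7_5 library A the second passed (0.60, adjusted p = 0.0454), as did that of TWIST1 (0.45, adjusted p = 0.0334), and without library B TWIST2 was at 0.39 (adjusted p = 0.485). In the same fit without library A, 3634 genes were called rather than 90.

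Of 9 mesenchymal genes that act beside TWIST, 8 were tested and 6 were called on induction, beside 50.9% of all genes, 3 higher and 3 lower (median -0.27). POSTN (periostin, a matrix protein and TWIST target) rose by 1.72, ZEB1 by 1.30 and SNAI1 by 1.08, the last 2 encoding repressors of epithelial genes. FOXC2, a forkhead factor of mesenchyme, fell by 1.84. None of the 8 was called in either knockdown, with 3 at an unadjusted p under 0.05 for each hairpin (beside 6.41% of all genes with shXPO7_3 and 21.6% with shXPO7_5), and FOXC2 with shXPO7_5 came closest (0.79, adjusted p = 0.0523).

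Few tissue-restricted partners of E proteins were present. Of 26 listed, 5 were tested, and the myogenic factors MYOD1, MYOG, MYF5 and MYF6 were listed at 0 in all libraries with 4OHT. On induction 4 of the 5 were called, beside 50.9% of all genes. MSC (musculin, a bHLH repressor) rose from 19.8 to 48.7 CPM, by 1.30 (adjusted p = 8.1e-07), and TCF21, a factor of mesenchymal progenitors, fell from 23.9 to 13.4 CPM, by 0.84 (adjusted p = 2.0e-06). Also called, and named after their values were seen, were ATOH8, which fell by 2.60, and NHLH1, which rose by 1.86 from 0.096 to 0.342 CPM. NHLH1 held 2 to 5 counts in the non-induced libraries and 7 to 22 with 4OHT alone. It could thus pass the filter on low counts only through libraries with 4OHT, where it was higher, and the 4 of 5 includes it. In the knockdowns 0 of the 5 were called. MSC differed from 4OHT alone by 0.064 and 0.22, and TCF21 by 0.31 with each hairpin (adjusted p = 0.233 and 0.0877).

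MYC was at 52.5, 50.3 and 46.1 CPM without induction and at 53.7, 57.5 and 55.9 CPM with 4OHT. The groups did not overlap, and the difference was 0.16 (95% interval -0.013 to 0.34, adjusted p = 0.111). It passed only with the GC and length correction (0.27, adjusted p = 0.0021) and with that correction and the replicate letter as a block, and was 0.066 with upper-quartile factors. In the knockdowns it was at 51.4, 51.4 and 54.5 CPM with shXPO7_3 and at 52.7, 52.2 and 61.7 CPM with shXPO7_5, with differences of -0.086 and -0.0029 whose 95% intervals reach from -0.26 to 0.091 and from -0.18 to 0.17.

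Of 12 listed genes of the MAX network around MYC, 10 were tested and 6 were called on induction, 3 higher and 3 lower, a share near the 50.9% of all genes. MXD1, a MAX partner that opposes MYC, rose by 1.28, and MLX, a MAX-like protein, by 0.73, while MXD3 fell by 2.47 and MXI1 by 0.59, both of them MYC antagonists. Among 22 tested ribosome-biogenesis and growth genes that MYC induces, 13 were called, also near the 50.9% of all genes, with 10 higher and 3 lower (median 0.23), where 24.8% of all genes were higher and 26.1% lower. WDR12, a factor of the large ribosomal subunit, rose by 0.79, POLR1B, a subunit of RNA polymerase I, by 0.75, NOP16 by 0.75 and the nucleolar protein gene GNL3 by 0.65. In both knockdowns 0 of these genes were called. At an unadjusted p under 0.05 there were 0 with shXPO7_3 and, with shXPO7_5, 4 MAX network and 5 growth genes, beside 6.41% and 21.6% of all genes.

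CDKN1A, the CDK inhibitor gene that the study places downstream of TCF3, rose on induction from 497 ± 45.6 to 1137 ± 49.9 CPM (SD, n = 3), by 1.19 (adjusted p = 5.1e-07). Its transcript was at 1070 ± 86.1 CPM with shXPO7_3 and 1043 ± 113 with shXPO7_5, differences of -0.088 (95% interval -0.29 to 0.12) and -0.12 (-0.33 to 0.079) from 4OHT alone. Neither passed (adjusted p = 0.999 and 0.385), and with 1 library left out in turn they ranged from -0.16 to -0.040 and from -0.20 to -0.042. The paper itself reports that XPO7 knockdown partly prevented the rise of CDKN1A in OIS, by protein staining, on immunoblots and at the mRNA level. With the GC and length correction the shXPO7_5 difference was -0.29 and passed (adjusted p = 0.0014), the same correction under which the TCF3 difference went from 0.28 to 0.080. A lower TCF3 transcript was not detected in either knockdown group. In the fit without the GC and length correction, the 95% intervals of its difference start at -0.17 with shXPO7_3 and at 0.080 with shXPO7_5. No interval is given for the corrected fit, so a small fall is not excluded.

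Of the 15 cell-cycle genes named as targets of E proteins, ID proteins or MYC, 13 were called on induction, beside 50.9% of all genes, 6 higher and 7 lower. CDKN2B, which encodes the CDK inhibitor INK4B, rose by 4.48, while CDKN2C, encoding a related inhibitor, fell by 3.23, E2F1 by 1.35 and CDKN1B by 1.35. In the knockdowns the 1 call was CCND2 (cyclin D2) with shXPO7_3, where 0.124% of all genes were called. It was at 26.6 ± 1.14 CPM with 4OHT alone, 18.7 ± 0.813 with shXPO7_3 and 21.3 ± 1.51 with shXPO7_5, with differences of -0.51 (adjusted p = 0.0409) and -0.32 (adjusted p = 0.0877). The shXPO7_3 call was lost when any 1 of the 6 libraries was left out.

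The genes whose level followed TCF3 and ID2 most closely over the 12 libraries were found by the root mean square difference of log2 CPM after centring each gene, among 9455 genes of average log2 CPM of at least 3. For TCF3 they were FZR1, CDK2AP2 and TTYH3, at 0.037, 0.038 and 0.038, against a spread of TCF3 about its own mean of 0.147 and a median over all genes of 0.258. For ID2 PRR11 and EZH2 stood at 0.080 and 0.086, against a spread of 0.715 and a median of 0.766. The libraries share depth, GC slope and the induction contrast, so closeness describes these 12 libraries only.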

How the data were processed

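RNA-seq was done on 12 libraries of IMR90 ER:RAS cells. The values are raw read counts for each gene, as the authors deposited them. Per the submitters' notes, TopHat2 and featureCounts were used with hg19 (GRCh37); the annotation and the strand setting were not given in the sources used here. Antisense reads can therefore not be told apart; genes overlapping the members on the other strand held at most 20 counts. Symbols and transcript lengths came from GENCODE 29 (GRCh38) and a gene name table by Ensembl identifier. The 92 spike-in entries were all 0 and were left out. Genes were kept by filterByExpr, scaled by TMM and fitted with edgeR 4.0.16 (quasi-likelihood, 4 groups, no covariates) in R 4.3.3; Benjamini-Hochberg adjustment covered the 15284 genes in each of 4 comparisons. The filter, scaling, test, samples fitted, replicate letter, GC and length trend and each library were varied (DESeq2 1.42.0). Fits were tested on simulated data. Replicate libraries differed by more than sampling noise.

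The members and gene lists were chosen with earlier results of these data known. Named were all members, XPO7 and CDKN1A, up to 4 genes a list with the largest called change on induction and an average log2 CPM of at least 1, every listed gene called in a knockdown, and the 3 genes most like TCF3 and ID2. One gene of the BMP list, taken out of its counts after the data were seen, and one of those most like ID2 are not reported here.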

Additional observations from a re-analysis of the deposited data

Results flagged for a closer look

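XPO7 differed between the hairpins: it was higher by 0.92 on the log2 scale with shXPO7_5 than with shXPO7_3 (edgeR, adjusted p = 0.000387), so the groups in which the bHLH genes were compared differed in the depth of the knockdown. None of the 10 members was called between the hairpins, and TCF3, at 0.25 (adjusted p = 0.388), was the only member whose libraries did not overlap, beside 9.71% of all genes.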

How the results depend on the processing

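The calls of ID1, ID2 and TWIST1 on induction were kept in all 15 alternatives and that of ID4 in the 14 that tested it; member counts were 4 or 5. TCF3 passed on induction with upper-quartile factors (-0.31, or -0.21 relative to the median of all genes, -0.10), a filter of 1 CPM in 6 libraries (-0.24), only the 2 groups fitted (-0.21) and the replicate block (-0.30). Members called with shXPO7_5 were 0 in the main fit, 1 with RLE factors, no filter beyond 1 count, the replicate block and the block with GC and length correction, 2 with DESeq2, and from 0 to 3 with a library left out (3 without shXPO7_5 library A). Pathway genes called with shXPO7_5, 0 in the main fit, were 1 with RLE, no filter, the CPM filter and the replicate block, 4 with DESeq2, 6 with the GC and length correction, 8 with that and the block, and from 0 to 26 with a library left out (26 without A). With shXPO7_3 the 1 pathway gene became 0 with upper-quartile factors, 2 groups only, the replicate block and each library left out (0 to 0), and 3 with GC and length correction, with or without the block. Between hairpins the 0 became 1 with GC and length correction, with or without the block. Partner balance in the non-induced, 4OHT, shXPO7_3 and shXPO7_5 groups was 2.56, 3.20, 3.19 and 2.99 with median transcript lengths and 0.67, 1.56, 1.49 and 1.47 without ID1; the GC and length correction moved it by less than 1 SD. The cause of these shifts was not tested.

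Over all genes, calls with shXPO7_3 were 19 (14 higher), 8 with upper-quartile factors, 30 without filter, 98 with DESeq2, 2 with 2 groups only, 304 (192 higher) with GC and length correction, 315 with the block added, and 1 with any library left out. With shXPO7_5 they were 90, 217 without filter, 442 with DESeq2, 10 with 2 groups only, 149 with the replicate block, 431 with GC and length correction, 766 with the block added, and from 2 to 3634 with a library left out (3634 without A). Between hairpins they were 2, 20 without filter, 26 with DESeq2, 0 with 2 groups only, where the XPO7 difference of 0.91 had an adjusted p of 0.114, 23 with GC and length correction, 37 with the block added and 1 to 4 with a library left out. Same-letter libraries deviated together with correlations from -0.234 to 0.368, so the letters were not taken to pair samples. With 3 libraries a group and 7 to 56 counts for ID4, small changes of the members are not resolved.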
